A study of Mus musculus with 80 samples.

Results

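RXR ChIP-Seq peaks over 10 extracellular matrix and stromal genes of mouse liver are described here. The genes were Col1a1, Col1a2, Col3a1, Col4a1, Col4a2, Col6a1, Col6a2, Fn1, Sparc and Vim, out of 21911 protein-coding genes of GENCODE M21 (mm10). They were chosen by name, with earlier results of these data known. Every peak that overlapped one of their gene bodies was taken, which gave 1022 peaks of 589904 in the 40 ChIP libraries. RXR is the nuclear receptor that pairs with PPARγ and other receptors on DNA, and pioglitazone (Pio) is a drug that activates PPARγ. Livers came from male C57BL6/J wild-type (WT) mice and from male mice with a liver-specific PPARγ knockout (KO), made by crossing PPARγ-loxP mice to mice with Cre under the albumin promoter, which acts in hepatocytes. The study's methods describe the WT controls as C57BL6/J mice and name no loxP or Cre allele in them. Each genotype received control diet (Control), control diet with Pio (Pio), high-fat diet (HFD) or high-fat diet with Pio (HFD-Pio) for 12 weeks, to an age of 5 months. Each of the 8 groups had 5 livers from separate animals, numbered 1 to 5 below with no pairing between groups. Each ChIP library was compared with an input library by the authors.

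These genes make or organise connective tissue. Col1a1 and Col1a2 encode the chains of type I collagen and Col3a1 encodes type III collagen, the fibrillar collagens of scar and vessel wall. Col4a1 and Col4a2 encode the main chains of basement membrane collagen, and Col6a1 and Col6a2 encode chains of the microfibrillar type VI collagen. Fn1 encodes fibronectin, which hepatocytes secrete into plasma and stromal cells deposit in matrix, and Sparc encodes a collagen-binding glycoprotein. Vim encodes vimentin, the intermediate filament protein of mesenchymal cells. In liver, stellate cells, fibroblasts, endothelial cells and smooth muscle cells are the usual sources of these transcripts other than Fn1, and activated stellate cells are known for depositing fibrillar collagen. In whole liver, fewer cells of a type and less signal per cell cannot be told apart.

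Several facts of the libraries touch every comparison below. After filtering, WT libraries held 2.04 to 4.26 M tags (M, 1e6) and the authors' p cutoff for them was 0.001, whereas KO libraries held 0.628 to 1.06 M tags and their cutoff was a q of 0.05. Depth, cutoff and genotype therefore cannot be told apart. Of the WT libraries, 6 had a fragment length of 45 to 48 bp in MACS2, against 119 to 292 bp in the other libraries. These 6, called short-fragment libraries below, were Pio livers 2, 3 and 5 and HFD-Pio livers 1, 4 and 5. The length is an estimate by MACS2, and in these 6 it was no longer than the sequenced tags, 48 to 49 bp. Whether their DNA fragments were in fact shorter was not tested. The number of peaks per liver ranged from 579 to 12919 in WT Control and WT HFD livers, from 1905 to 33705 in WT Pio and WT HFD-Pio livers, and from 7630 to 30437 in KO livers. The labels name no antibody for the 15 libraries of KO Pio, KO HFD and KO HFD-Pio, although their titles name RXR, and values of those groups rest on the titles.

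Peaks over these genes were small. Fold enrichment is the ratio of ChIP signal at the peak summit to the local input background. The pileup at a summit, in tags, was 2 to 21 with a median of 4 in KO libraries. It was 2 to 23 with a median of 4 in the short-fragment WT libraries. In the other WT libraries with a peak it was 3 to 17 with a median of 6. A peak called at so few tags is easily missed in another liver, so a liver without a peak is a liver with none called, not with no signal.

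The peaks followed the exons. Of the 1022 peaks, 896 (87.7%) had their summit in an annotated exon, although exons make up 15.4% of the 493 kb of the gene bodies. WT Pio livers had 63 exon and 7 other summits, WT HFD-Pio livers 46 and 5, and KO livers 786 and 104. WT Control livers had 1 exon summit and 9 intron summits, and WT HFD livers had 1 peak, with an intron summit. Median fold enrichment at exon summits was 4.69 in WT and 4.59 in KO livers, and at other summits it was 3.73 in WT and 3.75 in KO. Of the 104 KO peaks with an intron summit, 99 still touched an exon, against 2 of the 22 WT peaks with a summit outside exons, 1 of which, in Col4a2, had its summit just past the end of the gene.

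**Figure D1:**
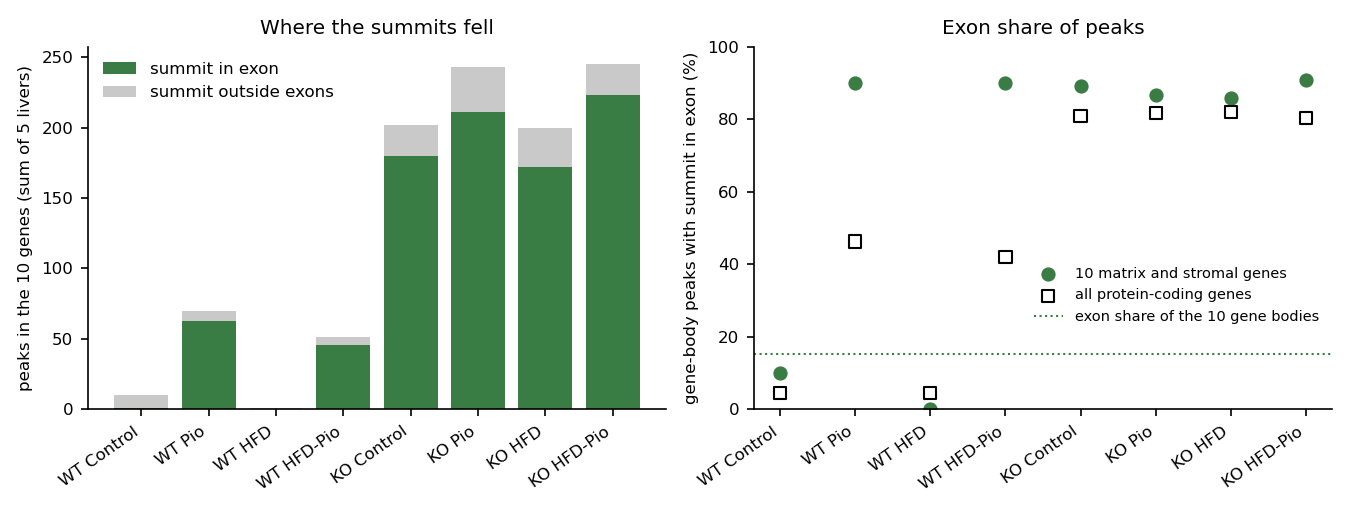
Peaks over the 10 genes by group (left, sum of 5 livers, summits in exons green and others grey) and the percent of gene-body peaks with an exon summit (right, the 10 genes as filled circles, all protein-coding genes as open squares, the exon share of the 10 gene bodies as a dotted line at 15.4%). WT Control and WT HFD lie at or below the dotted line for the 10 genes, and the other 6 groups lie at 86.0% or higher.

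Exon summits were also frequent across all genes of the KO and the Pio-treated WT groups. Across all protein-coding genes, the share of gene-body peaks with an exon summit was 81.0%, 81.8%, 82.1% and 80.3% in KO Control, KO Pio, KO HFD and KO HFD-Pio, where the 10 genes had 89.1%, 86.8%, 86.0% and 91.0%. In WT Pio and WT HFD-Pio it was 46.3% and 42.0% over all genes and 90.0% and 90.2% over the 10 genes. In WT Control and WT HFD it was 4.61% and 4.45% over all genes. Promoters carried almost none of the peaks. In the window from 250 bases before to 50 bases after the start of the principal transcript, no WT peak and 3 KO peaks were found, in 2 livers for Fn1 and in 1 for Col4a2.

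Overlapping peaks of the 40 livers merged into 214 sites, 160 with an exon summit and 54 with a summit outside exons, and 96 of them were called in 1 liver. At least 3 livers of some group shared 42 exon sites and 1 intron site. That intron site, in Col4a1 at chr8:11218579-11219297, was called in 12 livers and 47.6% of its bases were exonic. Of the 27 exon sites called in WT livers, 21 (77.8%) were also called in KO livers, which is 13.6% of the 154 KO exon sites. No site was called in 3 or more livers of WT Control or WT HFD.

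The leading site of a gene is the site called in most livers. Exons of 5 genes carried peaks in at least 3 of the 5 WT Pio livers. In these 5 genes the median summit of the leading site lay in a coding exon. The 30 bases at the exon border nearest to that summit are shown as reference sequence and hold no ChIP signal themselves. Exonic bases made up 79.0% of the leading site in Col1a1, 84.1% in Col1a2, 74.8% in Col3a1, 55.3% in Sparc and 45.8% in Vim. Sequences are from RefSeq GRCm38.p6 (the mm10 build), written 5′ to 3′ on the strand of the gene, with exon bases in capitals and intron bases in lower case.
Col1a1, exon 51, chr11:94951458-94951487, plus strand: cttcattcacaccagAGTCACACCGGAACT
Col1a2, exon 52, chr6:4540501-4540530, plus strand: ttttctattatacagAAAAAGACAAATGAA
Col3a1, exon 51, chr1:45348586-45348615, plus strand: ttctcttttgaatagAAACACACTGGGGAA
Sparc, exon 6, chr11:55402057-55402086, minus strand: gtgcttggctcacagGTATGCAGCAATGAC
Vim, exon 6, chr2:13580224-13580253, plus strand: AGGCGAGGAGAGCAGgtatagaaggcaaac
The median summit was 32 bp inside this border in Col1a1, 116 bp in Col1a2, 126 bp in Col3a1, 50 bp in Sparc and 85 bp in Vim. Exon 51 of Col1a1, exon 52 of Col1a2 and exon 51 of Col3a1 are the last exons of their principal transcripts, whereas exon 6 of Sparc and exon 6 of Vim are internal exons of 121 and 221 bp.

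RXR heterodimers bind direct repeats of the hexamer AGGTCA, and with PPARγ the repeat has a spacer of 1 base. Within 100 bases on either side of the median summit, on both strands, the leading site of 1 of the 10 genes held such a repeat with at most 2 mismatches in its 12 fixed bases. It was Col6a2, a site called in 4 KO livers only, shown with matching bases in capitals.
Col6a2, chr10:76603509-76603521, plus strand: AGGTCAgAGaaCA
At the site called in most livers of all, that of Vim, the best match had 4 mismatches.
Vim, chr2:13580055-13580067, minus strand: AGGgCAaAatTCt
The same search found a repeat in 2.24% of all 215015 merged sites of the 40 livers and in 2.55% of those with a summit in an exon of a protein-coding gene. A missing match says only that these letters were not in the window.

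Type I collagen genes had no peak in untreated WT livers except for 1 call in Col1a2. In Col1a1 (ENSMUSG00000001506, chr11:94936224-94953042), WT Pio livers 1 to 5 had a strongest fold enrichment of 7.005, 3.74, 7.29, none and 6.57. WT HFD-Pio livers had 8.28, none, none, 5.71 and 3.66. The WT Pio peak of liver 1 had its summit in the intron before the last exon, with 73.9% of its bases in exons. No WT Control or WT HFD liver had a peak, so treated and untreated WT livers overlapped only where none was called. In KO livers the values were 5.66, 5.66, 5.25, none and 5.44 in Control, 7.34, 6.53, 4.59, 3.96 and 7.61 in Pio, 5.63, 4.52, 5.62, 3.74 and none in HFD, and 4.62, 6.60, 4.77, 5.29 and 6.996 in HFD-Pio. The KO groups overlapped one another throughout.

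Col1a2 (ENSMUSG00000029661, chr6:4504814-4541544) showed the same placement with fewer livers. The WT Pio values were 4.56, none, 9.11, none and 4.69, and the WT HFD-Pio values were 7.50, none, none, 5.71 and 2.70. The peak in WT Control liver 5, with a fold enrichment of 3.55 and 4 tags at its summit, lay in a non-coding exon at chr6:4512414-4512705, away from the treated livers' sites, and its −log10 q was 0.0484. Gm43921, a gene on the same strand, overlaps Col1a2. KO livers had Col1a2 peaks in 5, 5, 4 and 5 of 5 livers of Control, Pio, HFD and HFD-Pio, at 2.83 to 7.60-fold.

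Type III collagen was the fibrillar collagen with peaks in every WT Pio liver. In Col3a1 (ENSMUSG00000026043, chr1:45311538-45349706) WT Pio livers 1 to 5 had 13.7, 8.42, 8.23, 5.96 and 3.75-fold enrichment, all at exon summits, and no WT Control liver had a peak. WT HFD-Pio livers had 9.38, none, 3.52, 9.52 and 5.49, where the 3.52 was an intron peak, and no WT HFD liver had a peak. In KO livers the gene was called in 3, 4, 3 and 4 of 5 livers of Control, Pio, HFD and HFD-Pio, with mean strongest values of 4.27 ± 0.488 (SD, n = 3), 3.75 ± 0.0392 (SD, n = 4), 4.80 ± 1.09 (SD, n = 3) and 4.27 ± 0.954 (SD, n = 4) among the called livers. The corresponding WT Pio mean was 8.01 ± 3.70 (SD, n = 5). Its leading site, in exon 51, was called in 5 WT Pio and 3 WT HFD-Pio livers and in 5 of 20 KO livers.

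Basement membrane collagen genes had exon peaks in KO livers and none in WT livers, which differ in depth and cutoff. Col4a1 (ENSMUSG00000031502, chr8:11198423-11312826) had exon peaks in 20 of 20 KO livers and in no WT liver. Its leading site, at chr8:11198489-11199926 in the 3′ UTR in exon 52, was called in all 20 KO livers, with a mean of 6.76 ± 1.23 for Control livers, 6.42 ± 1.28 for Pio livers, 6.98 ± 1.98 for HFD livers and 7.18 ± 2.01 for HFD-Pio livers (SD, n = 5 each). These groups overlapped. The only WT peaks were intron peaks in WT Control liver 2, at 4.44-fold for the stronger, and liver 4, at 5.28-fold.

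Col4a2 (ENSMUSG00000031503, chr8:11312805-11449287), which lies head to head with Col4a1 and overlaps it by its first bases, also had exon peaks in 20 of 20 KO livers and in no WT liver. Its leading site, in the 3′ UTR in exon 48, was called in 4, 5, 4 and 5 KO livers of Control, Pio, HFD and HFD-Pio. The 4 WT livers with a peak, at summits outside exons, were Control livers 1 and 4 (3.06 and 5.24), Pio liver 3 (3.45) and HFD liver 3 (3.72). The HFD peak was the single peak over any of the 10 genes in the 5 WT HFD livers.

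Type VI collagen genes were rarely called. Col6a1 (ENSMUSG00000001119, chr10:76708792-76726168) had no peak in WT livers, a peak at 3.77 in 1 KO Control liver, and peaks at 4.70, 4.64 and 4.76 in KO Pio livers 1, 4 and 5. Its 6 sites were each called in 1 liver. Col6a2 (ENSMUSG00000020241, chr10:76595762-76623630) had intron peaks in WT Control livers 2 and 4, at 4.47 and 4.36, and exon peaks in 1, 1, 3 and 2 of 5 KO livers of Control, Pio, HFD and HFD-Pio.

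Fibronectin exon peaks were spread along the Fn1 transcript in KO livers and lay at its end in WT livers. In Fn1 (ENSMUSG00000026193, chr1:71585520-71653200) KO Control livers had 6.07, 5.66, 6.57, none and 6.61, and all 15 other KO livers had a peak at 4.77 to 8.51-fold. Of the 41 exon sites, 41 were called in KO livers and 1 in WT livers. WT intron peaks were called in Control liver 1, at 3.82, in Pio liver 2, at 2.81, and in HFD-Pio liver 5, at 2.75. WT exon peaks were called in Pio livers 2 and 3, at 3.73 and 3.64, and in HFD-Pio liver 4, at 4.76. Their 3 summits lay at 98.5% to 98.7% of the transcript length, in the 3′ UTR, while 171 KO summits ran from 1.61% to 97.7%. The transcript Apol7d lies antisense within Fn1 and ChIP reads carry no strand of transcription.

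Sparc and Vim had the peaks shared by most livers. In Sparc (ENSMUSG00000018593, chr11:55394500-55423183) WT Pio livers 1 to 5 had 6.84, 5.61, 10.02, 4.63 and 8.45, all at exon summits. WT HFD-Pio livers had 8.44, 3.88, none, 6.67 and 4.41, of which the 3.88 was an intron peak. WT Control liver 2 had an intron peak at 3.37 and no other untreated WT liver had a peak, so all 5 WT Pio values lay above all 5 WT Control values. KO Control livers had 8.49, 8.49, 7.94, 8.92 and 8.75, and KO Pio livers 9.39, 12.3, 9.33, 13.9 and 10.5. These groups did not overlap. How many of all genes separated fully, in the WT or in the KO livers, was not counted. The shares of all genes given with the tests below set only an upper limit. KO HFD livers had 8.71, 7.23, 9.21, 8.34 and 7.40, and KO HFD-Pio livers, which overlapped them, had 6.57, 9.41, 9.52, 10.6 and 11.4.

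Vim (ENSMUSG00000026728, chr2:13573927-13582826) had the strongest WT and the strongest KO peak of the 10 genes. WT Pio livers 1 to 5 had 5.60, 7.48, 21.9, 3.94 and 12.2, and WT HFD-Pio livers 6.72, 5.32, none, 14.3 and 3.78. No WT Control or WT HFD liver had a Vim peak. KO livers all had one, with means of 12.7 ± 2.05 for Pio, 10.6 ± 1.92 for Control, 11.7 ± 1.19 for HFD and 11.7 ± 1.90 for HFD-Pio livers (SD, n = 5 each), and these groups overlapped. The leading site at chr2:13579896-13580378 was called in 29 livers, namely all 20 KO livers, 5 of 5 WT Pio and 4 of 5 WT HFD-Pio livers.

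**Figure D2:**
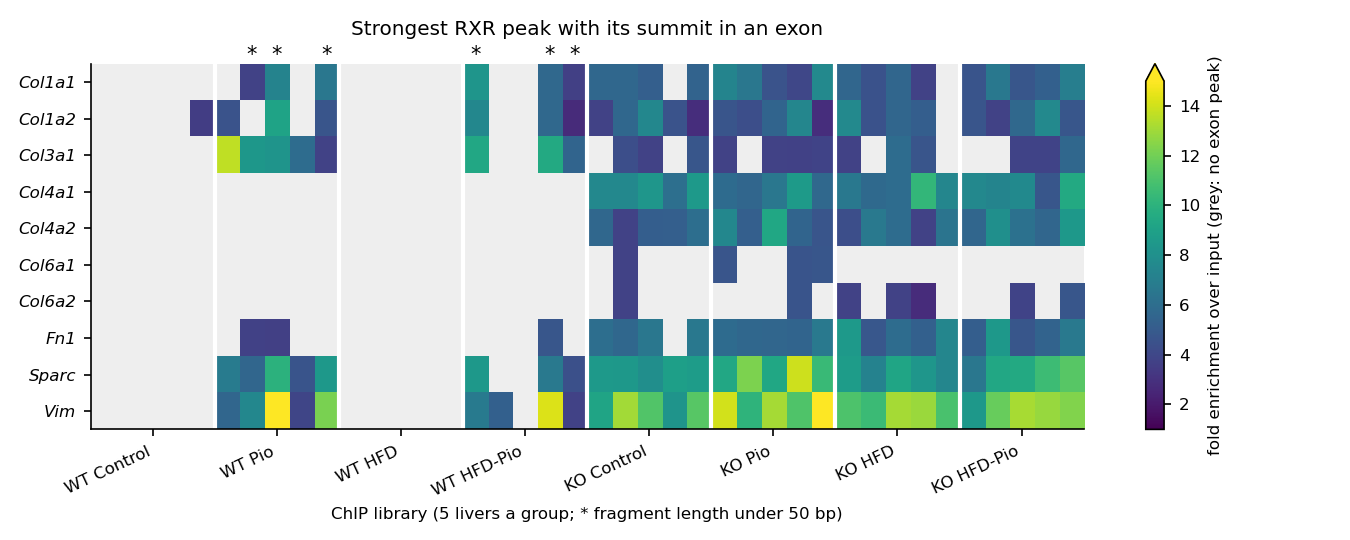
Strongest fold enrichment over input of a peak with its summit in an exon (colour) for each of the 10 genes (rows) in each of the 40 ChIP libraries (columns, 5 livers a group), grey where no exon peak was called and asterisks over the 6 libraries with a fragment length under 50 bp. Col4a1 and Col4a2 are filled in all 20 KO libraries and in no WT library, and Vim is filled in 9 of the 10 Pio-treated WT libraries.

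**Figure D3:**
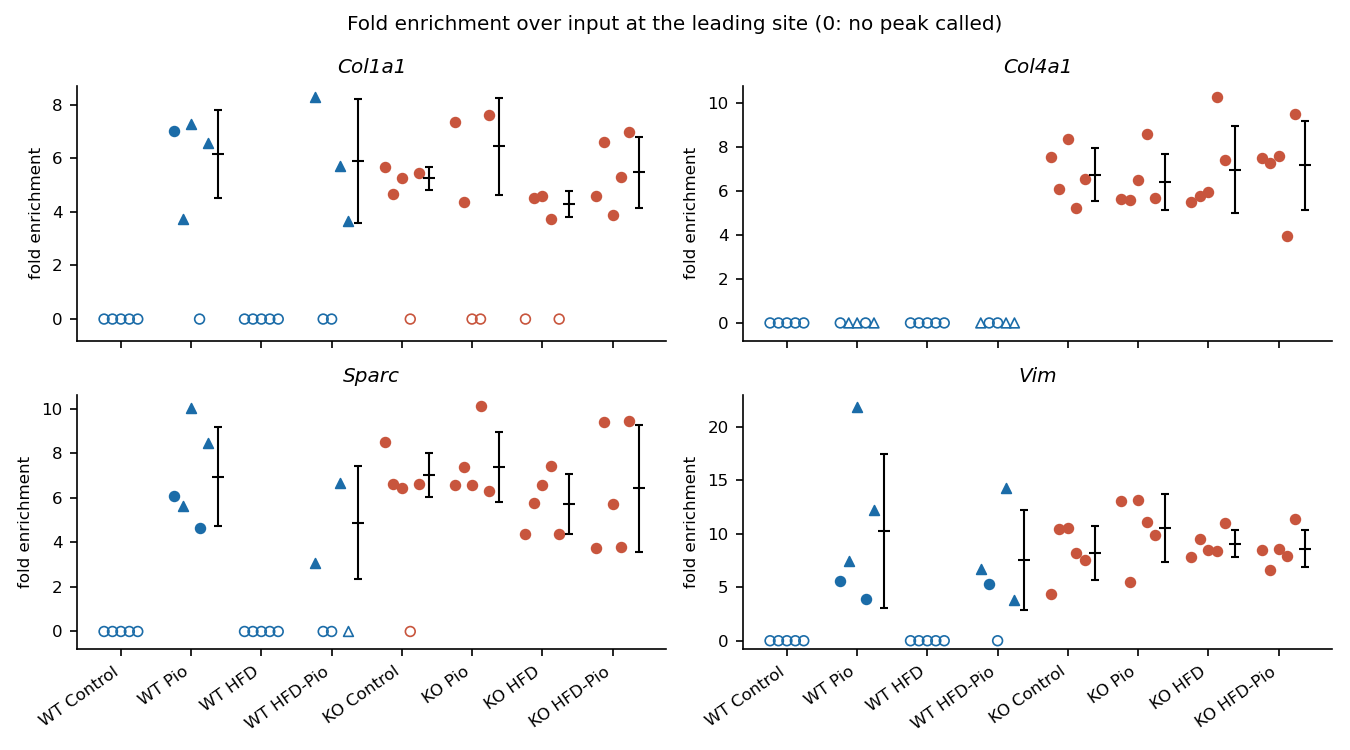
Fold enrichment over input at the leading site of Col1a1, Col4a1, Sparc and Vim in each liver (WT blue, KO red, triangles for fragment lengths under 50 bp, open symbols at 0 for no peak called), with the mean and SD over called livers in black. Vim was called in 29 livers and Col4a1 in the 20 KO livers alone.

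The share of the spliced transcript under peaks was highest in Sparc and Vim among the 10 genes in KO livers. In KO Control livers it was 61.9% ± 16.4 for Vim and 59.99% ± 10.2 for Sparc, against 19.2% ± 8.77 for Col4a1, 15.5% ± 11.2 for Fn1, 13.6% ± 7.89 for Col1a1 and 10.4% ± 6.50 for Col1a2 (SD, n = 5). In WT Pio livers it was 15.4% ± 5.67 for Vim and 11.8% ± 4.59 for Sparc (SD, n = 5). In KO Pio livers it was 61.9% ± 9.51 for Vim and 70.4% ± 8.54 for Sparc (SD, n = 5). Every WT Pio value lay below every KO Pio value of the same gene. The share of all genes for which this holds was not counted. List depth, cutoff and fragment length differ between these groups, and their part in the coverage was not tested. Vim and Sparc also had the shortest principal transcripts, 2193 and 2300 bp, against 3949 bp (Col6a2) to 8315 bp (Fn1) in the other genes. The part of transcript length in the order of the genes was not tested.

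WT summits lay nearer the 3′ end than KO summits in several of the genes. Along the principal transcript, the median WT summit of Col1a1 was at 74.3% and of Col3a1 at 80.6%, against 64.8% and 70.0% in KO. The earliest WT summit was at 63.8% in Col1a1, 51.1% in Col1a2, 60.4% in Col3a1 and 52.1% in Vim, so no WT summit in these 4 genes lay before the midpoint. In KO livers 15 of 69, 11 of 61, 9 of 26 and 26 of 114 did. Sparc was the exception, with 24 of 28 WT summits before the midpoint and a median of 30.7% (KO 42.7%). Over all genes, the median exon summit was at 43.8% in WT Pio, 44.4% in WT HFD-Pio and 49.7% to 50.6% in the KO groups. In the 10 genes it was at 74.6% in WT Pio, 76.0% in WT HFD-Pio and 60.9% to 64.4% in the KO groups. These positions are a description and were not tested.

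**Figure D4:**
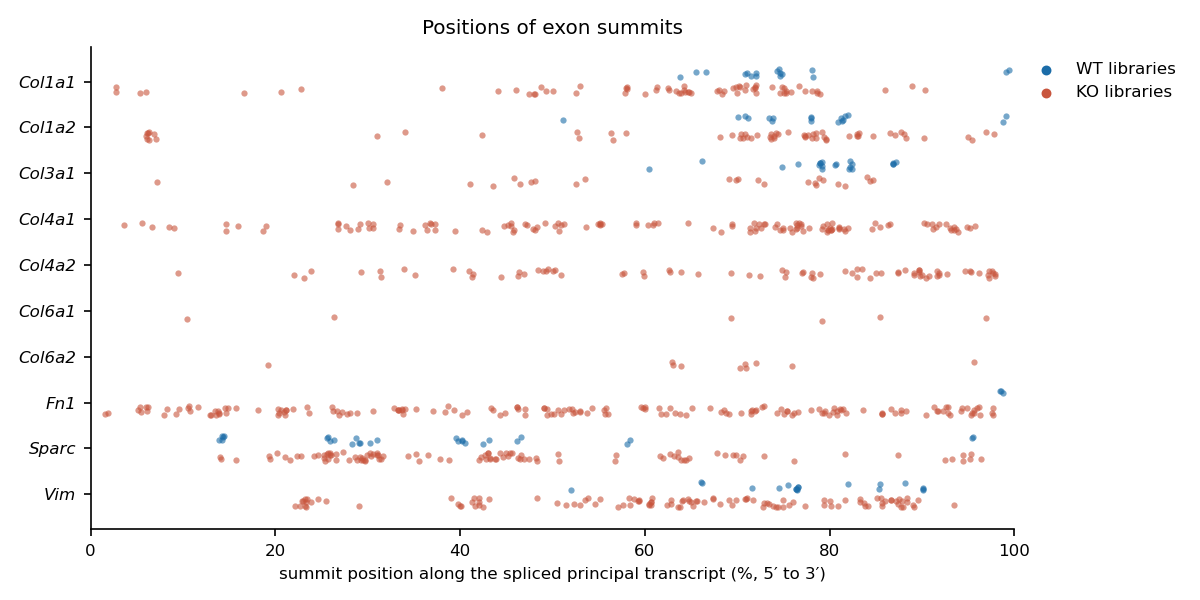
Position of each exon summit along the spliced principal transcript, in percent from 5′ to 3′, for each gene in WT (blue) and KO (red) libraries. Exon summits off the principal transcript are not shown. The WT summits shown for Col1a1, Col1a2, Col3a1 and Vim all lie beyond the midpoint. Those of Fn1 lie at the 3′ end, and those of Sparc lie mostly before the midpoint.

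Pio against its own diet control was compared first. For each gene the log2 of the strongest fold enrichment (a liver without a peak set to a fold of 1, log2 0) was compared by an exact two-sided permutation test that runs through every assignment of the 10 livers and cannot give a p under 0.00794, with Benjamini-Hochberg adjustment over all protein-coding genes with a peak in at least 3 of the 10 livers. No gene passed an adjusted p of 0.05, a background of 0%, in any of the 8 comparisons of Pio or of diet, so no member was called. Fisher's exact test on numbers of livers also called no gene in any of the 8, with 1123 and 615 genes at an unadjusted p below 0.05 for Pio in WT livers and 10 to 104 genes in the other 6. Counts from limma were 1274 and 830 genes for Pio in WT livers, 2 (0.0258%, no member among them) for KO Pio against KO Control and 0 in the other 5. A gene had to be called in at least 3 livers to be tested, so genes that entered through 1 group had to differ. A gene called in only 3 of the 10 livers cannot have a permutation p under 0.167, and so none below 0.05.

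In WT livers on control diet, 7 of the 10 genes could be tested and 4 had an unadjusted permutation p below 0.05, against 32.1% of the 3916 genes tested. Col3a1 differed by 2.87 (log2, Pio minus Control), Vim by 3.09 and Sparc by 2.42, and each was higher in 5 of 5 Pio livers. Each had the smallest possible unadjusted permutation p of 0.00794 and an adjusted permutation p of 0.101. The share of all 3916 genes at that smallest p was not counted, and can be at most the 32.1% with an unadjusted permutation p below 0.05. Col1a1 differed by 2.06, with a peak in 4 of 5 Pio and 0 of 5 Control livers (adjusted permutation p = 0.148). Col1a2 (1.16), Fn1 (0.37) and Col4a2 (-0.44) had adjusted permutation p-values of 0.311, 1 and 0.864. Fn1 and Col4a2 were called in too few livers for an unadjusted permutation p below 0.05. Across the 7 genes the median difference was 2.06, and across all genes tested it was 1.03. In limma with a trend on the same values, Col1a1, Col3a1, Sparc and Vim passed, with adjusted p-values of 0.00655, 5.45e-05, 0.00054 and 2.57e-05. The same fit called 32.5% of the 3916 genes, and Col1a1, Col3a1 and Vim, at 0 of 5 Control livers, entered it through the Pio livers alone. The Control values of Col1a1, Col3a1 and Vim were all the set log2 of 0, without spread, so their p-values do not stand as support. WT Pio liver 4 had the fewest peaks of its group, 1905. Without it the permutation test passed 1243 genes, 4 members among them, at a smallest adjusted permutation p of 0.0493. Passing was thus common over all genes in that run and not particular to the members.

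On high-fat diet, HFD-Pio against HFD, 5 genes could be tested and 3 had an unadjusted permutation p below 0.05, against 25.4% of 2571 genes. Col3a1 differed by 2.15, Sparc by 1.98 and Vim by 2.18 (log2), each called in 4 of 5 HFD-Pio and 0 of 5 HFD livers, with an adjusted permutation p of 0.187. Col1a1 (1.49) and Col1a2 (1.37), called in 3 of 5 against 0 of 5, had an adjusted permutation p of 0.230. At that number of livers neither could have an unadjusted permutation p below 0.05. The median difference was 1.98 over the 5 genes and 1.22 over all genes tested. In limma, Col3a1, Sparc and Vim passed, with adjusted p-values of 0.00507, 0.0113 and 0.00428. It called 32.3% of the 2571 genes, and all 3, at 0 of 5 HFD livers, entered it through the HFD-Pio livers alone. Their HFD values were all the set log2 of 0, without spread, so these p-values do not stand as support.

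Counted by a peak in at least 3 of 5 livers against 0 of 5, 3 genes were gained with Pio in WT Control-diet livers (Col1a1, Col3a1 and Vim) where 41.9% of all genes tested were gained. On HFD 5 were gained (Col1a1, Col1a2, Col3a1, Sparc and Vim) where 65.3% were. On HFD the 5 became 3 without HFD-Pio liver 1, 4 or 5. With peaks at q of 0.05 or less they became 2, Col3a1 and Vim. With equal numbers of peaks, each list cut to 579, they became 0. None of the 10 was lost. The members' shares of the genes tested, 3 of 7 and 5 of 5, thus stand beside a background in which gains were common, and no difference from that background was tested.

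The short-fragment libraries carried most of these WT peaks. The 3 of WT Pio held 58 of its 70 member peaks and the 3 of WT HFD-Pio held 47 of its 51. In the other WT Pio livers, 1 and 4, exon peaks were still called in Col3a1 (13.7 and 5.96), Sparc (6.84 and 4.63) and Vim (5.60 and 3.94), and 11 of their 12 member peaks had an exon summit. In the other WT HFD-Pio livers, 2 and 3, the only exon peak was that of Vim in liver 2 (5.32), 1 of 4 member peaks. Without the short-fragment libraries the test had 2 livers against 5, with a smallest possible p of 0.0952, so it could not pass in either diet.

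In KO livers the test called none of these genes for Pio, which does not show that the groups were alike. For KO Pio against KO Control, 9 genes were tested and 1 had an unadjusted permutation p below 0.05, against 6.32% of 7759 genes. It was Sparc, at 0.36 (log2) higher in Pio, with all 5 Pio livers above all 5 Control livers. Its adjusted permutation p was 0.716 (limma adjusted p = 0.649). The share of all genes that separated fully was not counted, and can be at most those 6.32%. For KO HFD-Pio against KO HFD, none of 9 genes had an unadjusted permutation p below 0.05, against 3.19% of 7747 genes. Differences of the tested genes ran from -0.24 in Col4a1 to 0.96 in Col6a1 on control diet and from -0.23 in Col6a2 to 0.67 in Col1a1 on HFD. No gene of the 10 was gained or lost, where 2.29% and 1.34% of genes were gained. Whether the Pio differences differ between WT and KO livers was not tested, since the 2 genotypes were called at different depths and cutoffs.

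The test called no gene for diet either. The diet comparisons share livers with the Pio comparisons. In WT HFD against WT Control only Col4a2 entered the test (-0.42, 1 of 5 against 2 of 5 livers). At so few called livers it could not have an unadjusted permutation p below 0.05, as 3.75% of 881 genes did. In WT HFD-Pio against WT Pio none of 6 genes did, against 0.802% of 4988, and the median difference was -0.65 over the 6 and -0.27 over all genes tested. In KO HFD against KO Control none of 9 genes did, against 2.25% of 7409. In KO HFD-Pio against KO Pio none of 10 did, against 5.16% of 8086, and Col6a1 and Col6a2 were called in too few livers to do so. Col6a1 had a peak in 3 of 5 KO Pio and 0 of 5 KO HFD-Pio livers (-1.34, adjusted permutation p = 0.899). Its unadjusted permutation p of 0.167 was the smallest possible at that number of livers. The same 3-against-0 pattern held for 126 of the 8086 genes, and the reverse pattern for 53 genes.

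To set the genotypes side by side, the KO cutoff (q at or under 0.05) was applied to WT peaks too, which kept 101 of the 132 WT member peaks and all 890 KO ones. No test was made. Of the 9 genes with enough livers, 5 had a peak in 0 of 5 WT Control and at least 3 of 5 KO Control livers (Col1a1, Col1a2, Col3a1, Fn1 and Vim), where 72.3% of all genes did. In the Pio groups these were Col4a1, Col4a2 and Col6a1, 3 of 9 genes where 39.5% of all genes did. In the HFD groups all 9 genes with enough livers, every member but Col6a1, were in this class, with 92.7% of all genes, and in the HFD-Pio groups Col4a1 and Col4a2 were, 2 of 8 with 51.7% of all genes. No member showed the opposite pattern. With equal numbers of peaks taken from each list, the counts were 0 in all 4 comparisons. The lists were cut to 170 (Control), 840 (Pio), 261 (HFD) and 827 (HFD-Pio) peaks per liver. KO lists had held 7630 to 30437 peaks, so these counts of 0 do not show that the genotypes were alike.

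Other matrix genes shared the pattern only in part. Of the 28 other collagen genes, none had an exon peak in 3 or more livers of any group, and the most often called was Col5a2, a fibrillar collagen, in 7 livers at 3.23 ± 0.523 (SD, n = 7). Among 16 collagen folding and cross-linking genes, 3, 5, 3 and 3 reached 3 livers in KO Control, Pio, HFD and HFD-Pio and 1 did in WT Pio and in WT HFD-Pio. That gene was Ppib, a prolyl isomerase of the secretory pathway, called in 30 livers at 11.2 ± 5.10 (SD, n = 30), in 5 of 5 livers of both groups. Serpinh1, the collagen chaperone, and P4hb, the beta subunit of prolyl hydroxylase, were called in 20 of 20 KO livers and in 1 and 0 WT livers.

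Among 30 matrix glycoproteins and proteoglycans, 10, 12, 10 and 13 reached 3 livers in the KO groups in the same order and 2 and 3 in WT Pio and WT HFD-Pio. Sparcl1, a relative of Sparc, was called in 23 livers at 11.3 ± 3.74 (SD, n = 23), Fbln1 in 21 and Agrn in 20. Of 10 matrix turnover genes, 4, 4, 3 and 4 did in KO, led by the protease inhibitors Timp3 and Timp2 in 23 and 21 livers and Mmp14 in 13. Of 13 matrix receptor and adhesion genes, 5, 6, 6 and 6 did, led by the integrin chain Itgb1 in 26 livers, Dag1 in 24 and Vcl in 23. Over all protein-coding genes, 21.1%, 26.1%, 22.8% and 24.2% did in the KO groups, 6.38% in WT Pio and 3.90% in WT HFD-Pio. Of the 10 genes 8, 9, 9 and 8 did in the KO groups and 5 in WT Pio and in WT HFD-Pio. Since the 10 genes were chosen with earlier results of these data known, their higher shares are a description and no test.

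**Figure D5:**
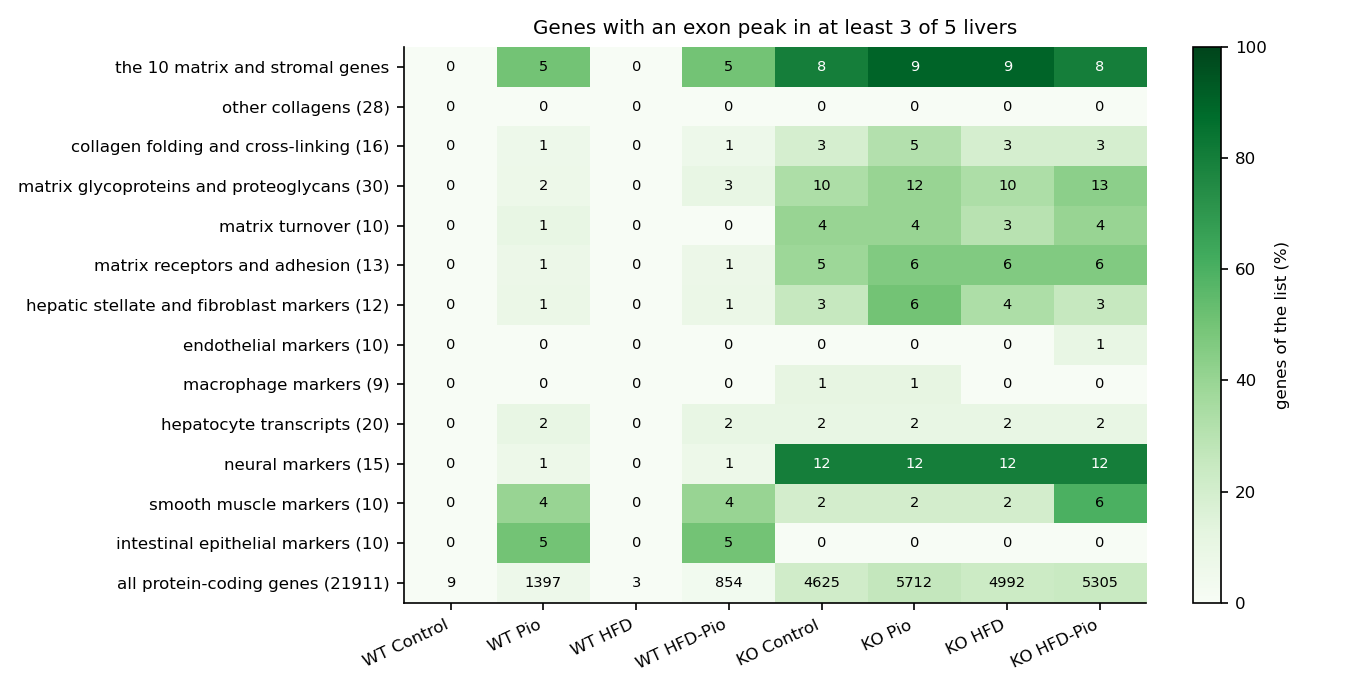
Number (text) and percent (colour) of genes with an exon peak in at least 3 of 5 livers, for the 10 genes, 12 other lists with their size in parentheses, and all protein-coding genes, in the 8 groups. Neural markers stand at 12 of 15 in each KO group, intestinal markers at 5 of 10 in WT Pio and WT HFD-Pio and 0 in the KO groups, and smooth muscle markers at 4 of 10 in WT Pio and WT HFD-Pio, 6 in KO HFD-Pio and 2 in the other KO groups.

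Marker genes of cell types moved with these groups too. Of 15 neural markers, 12 had an exon peak in at least 3 livers in each KO group (10 to 13 genes per KO liver), and 1, Tubb3, did in WT Pio (1 to 2 genes per liver) and in WT HFD-Pio (0 to 1). Stmn2 and Map2 were called in all 20 KO livers, and Mbp was the single neural marker at 0 in all KO livers. Of 10 intestinal epithelial markers, 5 reached 3 livers in WT Pio and in WT HFD-Pio (0 to 7 and 0 to 5 genes per liver) and none did in the KO groups, where Muc2 in 1 liver was the only call. Fabp2, Tff3 and Sis were at 0 in all livers. Pigr, Krt20 and Cdh17 were called in 8, 7 and 7 livers. Of 10 smooth muscle markers, 4 reached 3 livers in both Pio-treated WT groups (1 to 5 and 2 to 5 genes per liver) and 2, 2, 2 and 6 did in the KO groups, with Acta2 in 29 livers, Tagln in 27 and Actg2 in 17.

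Markers of stellate cells and fibroblasts, endothelium, macrophages and hepatocytes were counted in the same way. Of 12 stellate cell and fibroblast markers, 3, 6, 4 and 3 reached 3 livers in the KO groups and 1, Acta2, did in both Pio-treated WT groups. Reln and Rgs5 were called in 20 and 18 KO livers, while Lrat, Hgf, Dpt, Mfap5 and Hand2 were at 0 in all KO livers. Of 10 endothelial markers at most 1 reached 3 livers in any group, with Pecam1 in 6 livers and Kdr and Cdh5 in 4 each, and of 9 macrophage markers at most 1 did, with C1qb in 8 livers and Lyz2 and Csf1r in 3 each. Of 20 hepatocyte genes, Apoe and Ttr had exon peaks in 20 of 20 KO livers and the other 18, Alb among them, had none in any KO liver, and Pck1 was called in 8 WT livers. In 1 WT Control liver 9 of the 20, Alb and Apoa1 among them, had an exon peak. An exon peak is not a measure of expression, so these counts do not show which cells the libraries came from. Their part in the peaks over the 10 genes was not tested.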

How the data were processed

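The authors sequenced RXR ChIP (antibody sc-774) and input DNA from 40 livers, aligned reads to mm10 with Novoalign (version not given in the sources used here) and called peaks per library against its own input with MACS2 2.1.1.20160309, keeping 1 tag per position. Per the file headers, the deposited values are fold enrichment (a ratio to local background), pileup (a signal in tags), and p- and q-values as −log10. Input samples were not analysed here, and the narrowPeak files, whose peaks were identical in 40 of 40 libraries, were not used. Peak lists hold no read counts, so no counting interval or count test was possible, and a list shows only values past its cutoff.

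The 10 genes, the other lists and the tests were chosen with earlier results of these data known. Peaks overlapping a GENCODE M21 gene body by at least 1 bp were assigned to it. A peak with several summits was counted once, at the summit of highest fold enrichment. It was called exonic when its summit lay in an exon of any transcript. Positions refer to the APPRIS principal transcript. The text names all 10 genes with their leading site and, from each other list, up to 3 genes with exon peaks in most livers, ties by mean fold enrichment. Muc2, Alb, Apoa1, Mbp, Lrat, Hgf, Dpt, Mfap5, Hand2, Fabp2, Tff3 and Sis were named after their values were seen. Groups came from the labels. Same-numbered livers of compared groups did not deviate together (correlations from -0.417 to 0.170), so numbers do not pair them. No 2 libraries shared more than 0.566% of intervals. Alternatives covered cutoffs, exon summits, list length, overlap, left-out livers and other tests. The permutation script and limma were tested on simulated data. Python 3.11.15, pandas 2.3.3, numpy 2.4.6, scipy 1.17.1, pysam 0.24.0, matplotlib 3.10.9, R 4.3.3 and limma 3.58.1 were used.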

Additional observations from a re-analysis of the deposited data

Results flagged for a closer look

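Of 60 sets of 4 or 5 livers examined, 3 had a liver far from the others. In sets of continuous values chance flags about 1 in 20. A set of counts with a single liver at 1 and the others at 0 is always flagged, as in the WT Control and WT HFD sets below. WT Control liver 5 had 1 gene with an exon summit, Col1a2, and the other 4 livers had 0. WT HFD liver 3 had 1 peak over the 10 genes, in Col4a2, and the other 4 livers had 0. KO HFD-Pio liver 5 had a strongest fold enrichment of 5.70 in Col3a1, and the nearest of the other 3 livers with a peak had 3.81.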

How the results depend on the processing

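Across 287 alternatives, 266 counts stayed within 1.5 times the reported one and 21 moved. The reported 0 members past the test in WT Pio against WT Control became 4 with limma (1274 genes) and 4 with limma and the replicate block (1216 genes). Leaving out 1 liver at a time gave 0 to 4, with 4 (1243 genes) without WT Pio liver 4. For WT HFD-Pio against WT HFD limma gave 3 (830 genes) and the replicate block 3 (698 genes). The block changed no other call. For genes gained, WT Pio moved from 3 to 5 when 2 of 5 livers sufficed, of which 2 were losses. WT HFD-Pio moved from 5 to 2 with a q of at most 0.05, 0 with a −log10 q of at least 5, 2 with a fold enrichment of at least 5, 3 when 4 of 5 livers were needed and 0 with equal numbers of peaks. Leaving out 1 liver gave 3 to 5, the 3 coming without HFD-Pio liver 1, 4 or 5. KO Pio gave 0 to 1, the 1 without KO Control liver 2. The WT Control against KO Control count of 5 was 3 with peaks as deposited, 8 with exon summits and 0 with equal numbers of peaks. Equal numbers also gave 0 for the Pio, HFD and HFD-Pio genotype pairs, from lists cut to 261 to 840 peaks. Lists were cut to 170 peaks for the Control pair and to 579 for WT HFD-Pio against WT HFD. The causes were not tested. The count without short-fragment libraries could not be computed, since fewer than 3 livers remained in WT Pio and WT HFD-Pio, and it did not apply to KO livers. Summits of 2 to 23 tags limit what any of these lists can show.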
